A study of Mus musculus with 2 samples.

Results

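The contractile apparatus of vascular smooth muscle was followed through 10 of its genes: Acta2, Myh11, Tagln, Cnn1, Smtn, Myl9, Mylk, Lmod1, Tpm1 and Tpm2. The genes were chosen by name, and all 10 were found among the 16971 genes of the deposited count table. The table holds 5451 single cells, dissociated with enzymes from aortas taken whole and stripped of perivascular fat, all from female C57/BL6 mice labelled WT, on a chow diet and aged 12 weeks. All cells belong to 1 group made of 2 droplet libraries (10x version 2 chemistry, polyadenylated RNA), each from the aorta of a different mouse, so every comparison below is between cell populations and not between treatments. The authors had assigned each cell to 1 of 10 populations, named VSMC (vascular smooth muscle), Fibro 1 and Fibro 2 (fibroblasts), EC 1, EC 2 and EC 3 (endothelium), Neuron, Mono 1, Mono 2 and Macro.

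Smooth muscle contracts when myosin filaments pull on actin filaments. Calcium bound to calmodulin switches on a kinase that phosphorylates the myosin regulatory light chain, and the motor then cycles along actin. In the wall of the aorta these cells hold tone and carry the pulsatile load, and their contractile genes are used across the field to mark differentiated smooth muscle. Many of the genes are targets of serum response factor with its coactivator myocardin, which act through a DNA element called the CArG box.

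The 250 bases before the annotated start were available for 8 of the 10 genes, all except Tagln and Myh11 (RefSeq, build GRCm38.p6). They were searched on both strands for the CArG box, which is CC, then 6 bases that are all A or T, then GG. A looser form with at least 5 of the 6 central bases A or T was searched as well. The exact CArG box was present in 1 of the 8 windows, against 482 (1.47%) of all 32851 windows of that length in the reference table. The looser form, which contains the exact one, was present in 2 of the 8, against 8.59% of all windows. The 3 windows below are shown because the first pair are those with matches, and because Smtn stood apart from the other genes in the levels described further on. Each is written 5′ to 3′ on the strand of the gene and ends at the base before the start, with CArG-like letters in capitals.
Acta2, chr19:34255374-34255623, minus strand: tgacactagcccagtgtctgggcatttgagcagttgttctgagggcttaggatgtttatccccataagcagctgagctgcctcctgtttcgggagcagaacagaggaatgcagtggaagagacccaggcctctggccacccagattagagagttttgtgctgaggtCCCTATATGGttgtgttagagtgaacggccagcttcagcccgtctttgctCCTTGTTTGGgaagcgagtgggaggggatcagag
Myl9, chr2:156775214-156775463, plus strand: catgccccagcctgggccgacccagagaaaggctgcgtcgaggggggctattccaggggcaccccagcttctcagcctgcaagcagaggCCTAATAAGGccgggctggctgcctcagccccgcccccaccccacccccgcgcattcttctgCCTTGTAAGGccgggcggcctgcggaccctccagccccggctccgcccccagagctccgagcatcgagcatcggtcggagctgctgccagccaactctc
Smtn, chr11:3539293-3539542, minus strand: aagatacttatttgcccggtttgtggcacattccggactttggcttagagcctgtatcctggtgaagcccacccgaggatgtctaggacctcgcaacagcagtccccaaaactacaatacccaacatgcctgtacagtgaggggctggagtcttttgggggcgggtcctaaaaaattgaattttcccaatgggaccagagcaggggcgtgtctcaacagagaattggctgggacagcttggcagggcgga
In Acta2 the matches CCCTATATGG and CCTTGTTTGG began 84 and 34 bases before the start, and both belong to the looser form. In Myl9 the exact match CCTAATAAGG began 161 bases before the start and the looser match CCTTGTAAGG 99 bases before it. The motif CATTCC, the core of the element bound by TEAD factors, was found in 5 of the 8 windows (Acta2, Lmod1, Mylk, Smtn and Tpm1), against 12.6% of all windows, and overlapped no CArG-like match. A match describes the letters only, and no match says only that the letters are not in these windows.

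Library 1 held 2260 cells and 11104066 UMIs (unique molecular identifiers, each standing for 1 captured transcript), and library 2 held 3191 cells and 19484171 UMIs. VSMC comprised 1103 cells in library 1 and 1056 in library 2, with medians of 4648 and 7154 UMIs per cell. The smallest population was Neuron with 12 and 32 cells, and 12 cell barcodes occurred in both libraries. In Macro the macrophage gene Adgre1 was at 0 and summed immune markers reached 10383 and 7218 CPM, against 44337 and 38510 CPM in Mono 1, so its name rests on the authors' assignment. Another immune marker, Ms4a1, was at 0 in Mono 1 and Mono 2, and all of its 131 UMIs in the immune populations lay in Macro. Summed markers of smooth muscle, which include 6 of the 10 genes, reached 35685 and 33264 CPM (counts scaled to a total of 1000000) in VSMC, against 534 to 3859 CPM in the other populations. Levels below are CPM of the UMIs summed over the cells of a population in a library. Differences between populations are log2 fold changes from a single edgeR quasi-likelihood fit to the 20 sums of 10 populations in 2 libraries, with the library as a block. Each ± on the log2 scale gives a standard error, and a gene was called when its p-value, adjusted by Benjamini-Hochberg over all 10488 genes tested, was under 0.05. All 10 genes passed the filter on low counts.

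In VSMC the 10 genes together made up 4.83% of all UMIs in library 1 and 4.55% in library 2. Of all UMIs of these genes, 95.5% in library 1 and 94.6% in library 2 lay in VSMC cells. Because a UMI counts a transcript once whatever its length, levels were not divided by length. The thin filament actin gene Acta2 led, with 18481 CPM in library 1 and 16589 CPM in library 2, and ranked 2nd among all genes of VSMC in both libraries. It alone supplied 38.3% and 36.4% of the UMIs of the 10 genes.

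The tropomyosins lie along the actin filament and govern access of myosin to it. Tpm2 stood at 4367 and 4467 CPM and Tpm1 at 1968 and 1945 CPM in VSMC of libraries 1 and 2, so Tpm2 was the more abundant in each library. Among the actin-binding proteins, Tagln (transgelin, also called SM22α) reached 9931 and 9343 CPM. Calponin, encoded by Cnn1, binds actin and inhibits the myosin ATPase, and its gene stood at 1616 and 1490 CPM. Lmod1, a leiomodin that nucleates actin filaments, had 930.0 and 863 CPM. Smtn, which encodes the actin-associated protein smoothelin, was the lowest of the 10 at 541 and 538 CPM.

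The motor side was ordered in the same way in both libraries. The regulatory light chain gene Myl9 stood at 7079 and 6848 CPM, and the smooth muscle myosin heavy chain gene Myh11 at 2366 and 2249 CPM. Mylk, the kinase that phosphorylates the light chain, had 1007 and 1191 CPM. Over the 10 genes, the libraries differed little in VSMC: the SD over the 2 libraries was 2.02 CPM for Smtn around a mean of 539.8 CPM, and 1338 CPM for Acta2 around a mean of 17535 CPM. Mylk was, with Tpm2, among the 2 genes that were higher in library 2, while the other 8 were higher in library 1.

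**Figure D1:**
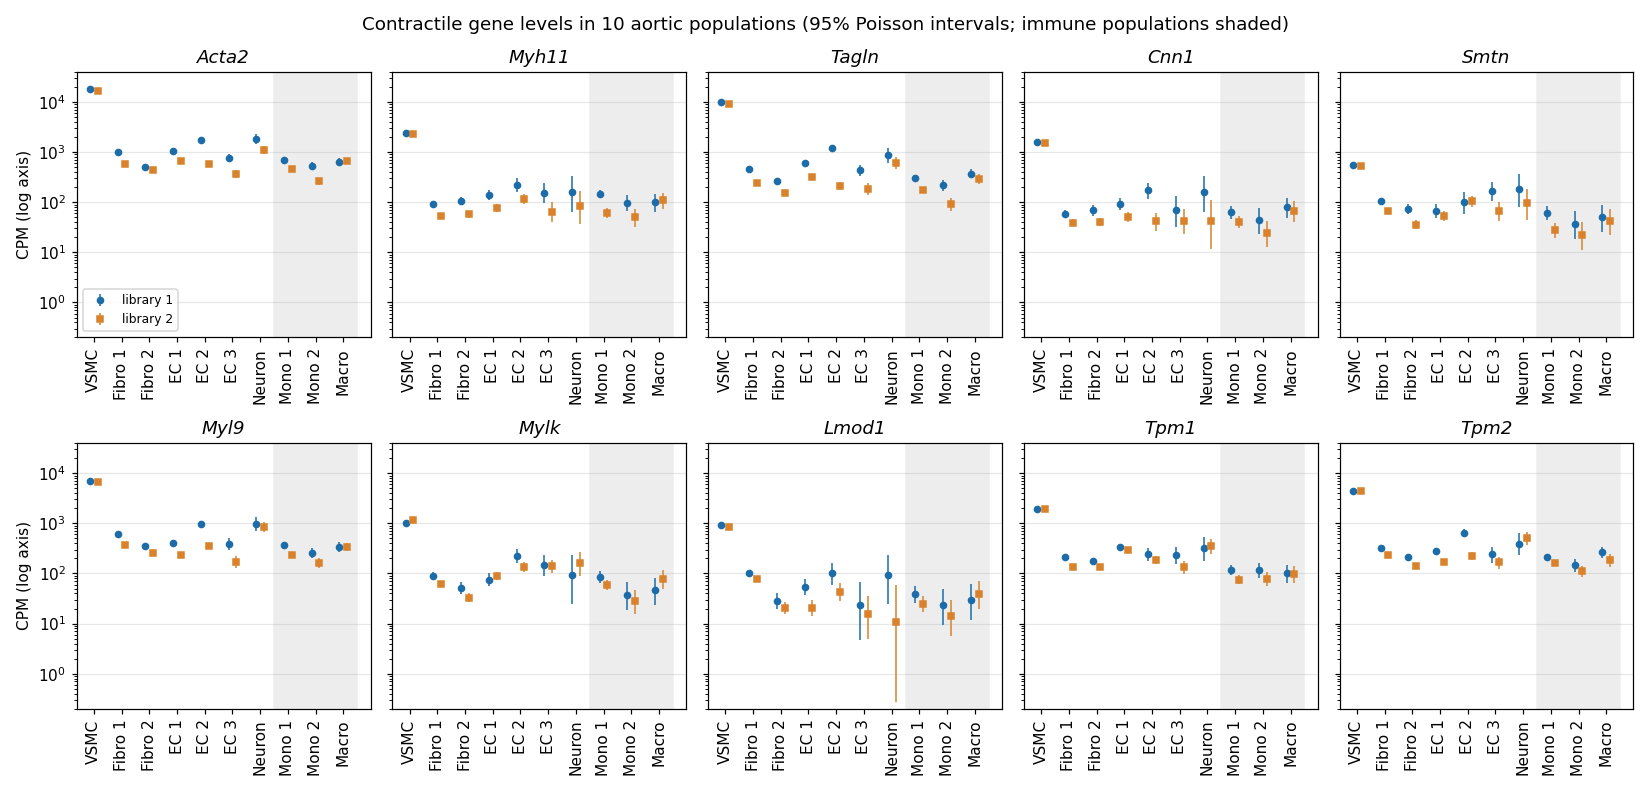
Level of each of the 10 contractile genes (CPM, log axis) in the authors' 10 populations, with circles for library 1, squares for library 2 and bars for exact 95% Poisson intervals, which cover counting error only. In every panel the VSMC points stand above all others, from 541 and 538 CPM for Smtn to 18481 and 16589 CPM for Acta2, and the 3 immune populations are shaded.

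Every one of the 10 genes was higher in VSMC than in the mean of the other 9 populations, in both libraries, while 28.7% of all genes tested were called higher and 15.5% lower. The authors formed the populations from these same cells and genes, so the folds describe the populations and their p-values carry no weight. Tagln had the largest difference (log2 fold change 4.99 ± 0.14), followed by Cnn1 (4.79 ± 0.12), Lmod1 (4.77 ± 0.10), Acta2 (4.73 ± 0.11) and Myh11 (4.64 ± 0.12). Tpm2 (4.31 ± 0.11) and Myl9 (4.30 ± 0.11) came next. Mylk (3.84 ± 0.12), Tpm1 (3.60 ± 0.10) and Smtn (3.10 ± 0.11) differed least. The median over the 10 genes was 4.47, against 0.07 over all genes tested. With DESeq2 the median over all genes was -0.07, and 2279 genes were called higher and 2644 lower, against 3008 and 1628 with edgeR. With RLE size factors 2567 were called higher and 1918 lower. The 10 contractile genes were called higher under each of these settings.

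The wider contractile programme stood with them. Of 19 other contractile apparatus genes tested, 19 were higher in VSMC, with a median log2 fold change of 3.52. The largest were Nexn (5.49 ± 0.14), which encodes an actin-binding protein, the Z-line gene Ldb3 (4.74 ± 0.22), the enteric actin gene Actg2 (4.66 ± 0.16) and the integrin gene Itga8 (4.41 ± 0.12). Of 20 regulators of contraction, 18 were higher and 2 were not called, with a median of 2.49. Their largest members were the subunits of the large conductance potassium channel Kcnma1 (4.57 ± 0.28) and Kcnmb1 (4.34 ± 0.15), the ryanodine receptor Ryr2 (4.40 ± 0.39) and the myosin phosphatase inhibitor Ppp1r14a (4.05 ± 0.16). Of 17 genes on a list for the serum response factor and myocardin pathway, 13 were higher and 2 lower, with a median of 2.76. That list also holds the Notch pathway genes Notch3, Heyl and Hey2, and Notch3 is counted among the pericyte markers below as well. Myocd, the myocardin gene itself, was higher by 4.25 ± 0.27 but sparse, at 49.7 and 60.0 CPM in VSMC.

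Relatives of the 10 genes in the same protein families were mixed. Of 14 paralogs tested, 6 were higher in VSMC, 4 lower and 4 not called, and their median log2 fold change was 0.01. Cytoplasmic tropomyosin Tpm3 stood at 94.99 and 80.1 CPM in VSMC and was lower than in the other populations by 1.69 ± 0.15 on the log2 scale. Non-muscle myosin heavy chain Myh9 was lower too, by 0.71 ± 0.12, at 87.6 and 61.5 CPM in VSMC. Its relative Myh10 was higher in VSMC (3.21 ± 0.14), at 221 and 177 CPM. Mylk4, a relative of Mylk, was also higher (4.69 ± 0.16), at 174 and 160.2 CPM. The cytoplasmic actin gene Actb reached 8370 and 5655 CPM in VSMC, with a fold of 0.61 ± 0.11, and so held less than the level of Acta2 in each library.

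Outside VSMC the 10 genes were detected in every population at a low level. Summed over the genes, the level was 844 to 5635 CPM, which is 1.85% to 11.7% of that in VSMC of the same library. For each gene VSMC ranked highest, and its libraries did not overlap those of the next population. Below VSMC nearly all neighbours in the order of levels overlapped over their 2 libraries. The exceptions were Myl9 between Fibro 1 and Macro, Mylk between Neuron and EC 1, and Tpm1 between EC 1 and EC 2 and between Fibro 2 and Macro.

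The share of cells with an Acta2 UMI was 99.7% in library 1 and 99.9% in library 2 of VSMC when every cell was thinned to 1000 UMIs. In the other 9 populations the median share was 54.7% in library 1 and 35.9% in library 2. In Mono 1, immune cells that should lack the gene, it was 51.9% (exact Clopper-Pearson 95% interval 44.4 to 59.4) and 31.7% (26.1 to 37.7). Mono 1 cells had medians of 3574 and 4421.5 UMIs, against 4648 and 7154 in VSMC. Without thinning, all VSMC cells and 87.3% and 81.3% of Mono 1 cells had an Acta2 UMI. The exact intervals of the other populations overlapped those of Mono 1 in the same library, with the exception of EC 2 in library 2 at 46.2% (38.6 to 54.0). Fibro 1 had a higher share than Fibro 2 in each library, at 59.0% (53.9 to 63.9) against 42.0% (35.2 to 49.1) in library 1 and 37.4% (33.9 to 40.9) against 27.4% (23.2 to 31.9) in library 2. Shares at or below that of Mono 1 were not read as expression of Acta2.

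The summed share of a cell's UMIs from the 10 genes separated the populations more clearly. In VSMC the median cell had 4.38% in library 1 and 4.35% in library 2, and 10% of cells fell below 2.26% and 2.59%. Medians in the other populations were between 0.0843% and 0.257%. Of 3292 cells outside VSMC, 12 reached the 5th percentile of the VSMC cells of their library, and 11 of these were marked as doublets (2 cells in a droplet). Within VSMC, 0 of 1103 cells in library 1 and 5 of 1056 in library 2 lay below the 95th percentile of the cells outside it.

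**Figure D2:**
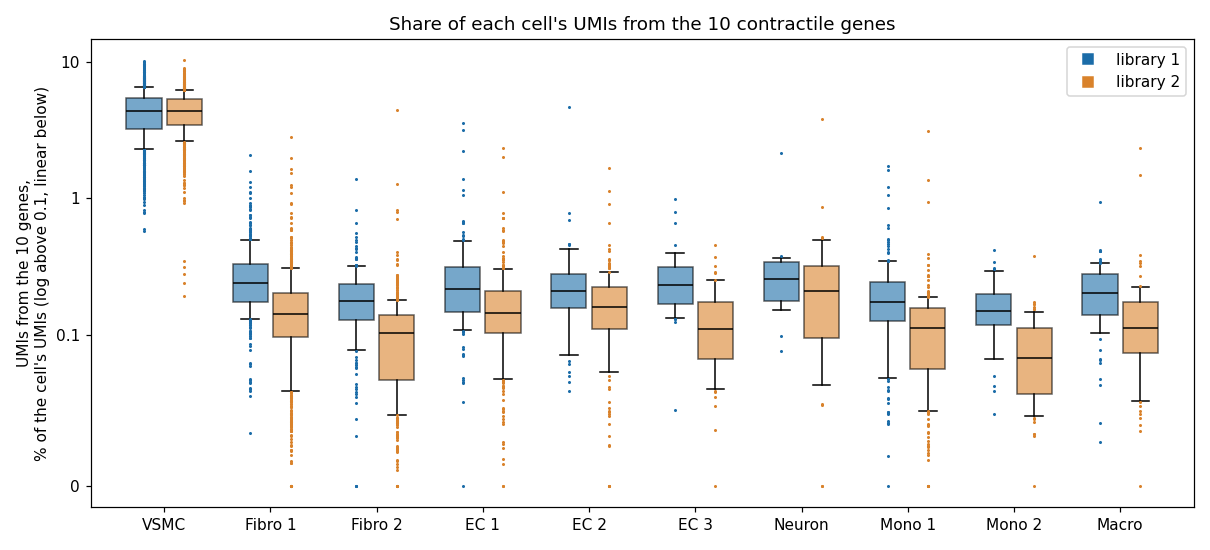
Share of each cell's UMIs from the 10 contractile genes (%, log axis above 0.1 and linear below) by population and library, as boxes with the quartiles and median, whiskers from the 10th to the 90th percentile and points beyond them. VSMC medians lie at 4.38% and 4.35%, and all other medians lie between 0.0843% and 0.257%.

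To compare the mix of the 10 genes between populations, each gene was set against Acta2 and the ratio divided by that in VSMC of the same library. A ratio was called above or below 1 when its exact binomial 95% interval excluded 1 in both libraries. For Cnn1 the intervals included 1 in both libraries of 7 of 9 populations, for Lmod1 of 7 and for Myh11 of 5. Some of these rest on few UMIs and could not have shown a difference, as for Lmod1 in EC 3, with 3 and 5 UMIs and intervals of 0.122 to 1.81 and 0.258 to 1.94. Smtn was above the VSMC ratio in 8 of 9 populations, with Macro mixed between the libraries. Over the populations and libraries Smtn per Acta2 UMI was 1.87 to 7.59 times that in VSMC, with a median of 2.69. In Fibro 1 there were 10.4 and 11.5 Smtn UMIs per 100 Acta2 UMIs in libraries 1 and 2, and in VSMC 2.93 and 3.25.

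Tpm1 followed Smtn, above the VSMC ratio in 6 of 9 populations with a median of 2.28. In library 1 Tpm1 was highest in Fibro 2, at 3.41 times, against 3.04 in EC 1. In library 2 it was highest in EC 1, at 3.64 times. Mylk was above the VSMC ratio in EC 2, EC 3, Fibro 1 and Mono 1, and highest in EC 3 at 3.52 and 5.27 times. Lmod1 was above it in Fibro 1 alone, at 1.99 and 2.55 times, while Myh11, Cnn1 and Tagln were below it there. Myl9 and Tpm2 were above it in EC 2, Fibro 1, Fibro 2 and Mono 1, with medians of 1.38 and 1.34 over all populations. In Mono 1, an immune population, 5 genes were above it, namely Smtn, Tpm1, Mylk, Myl9 and Tpm2. Tagln was below it in Mono 1 as well as in Fibro 1, at 0.78 and 0.69 times in Mono 1. The source of these UMIs was not tested.

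**Figure D3:**
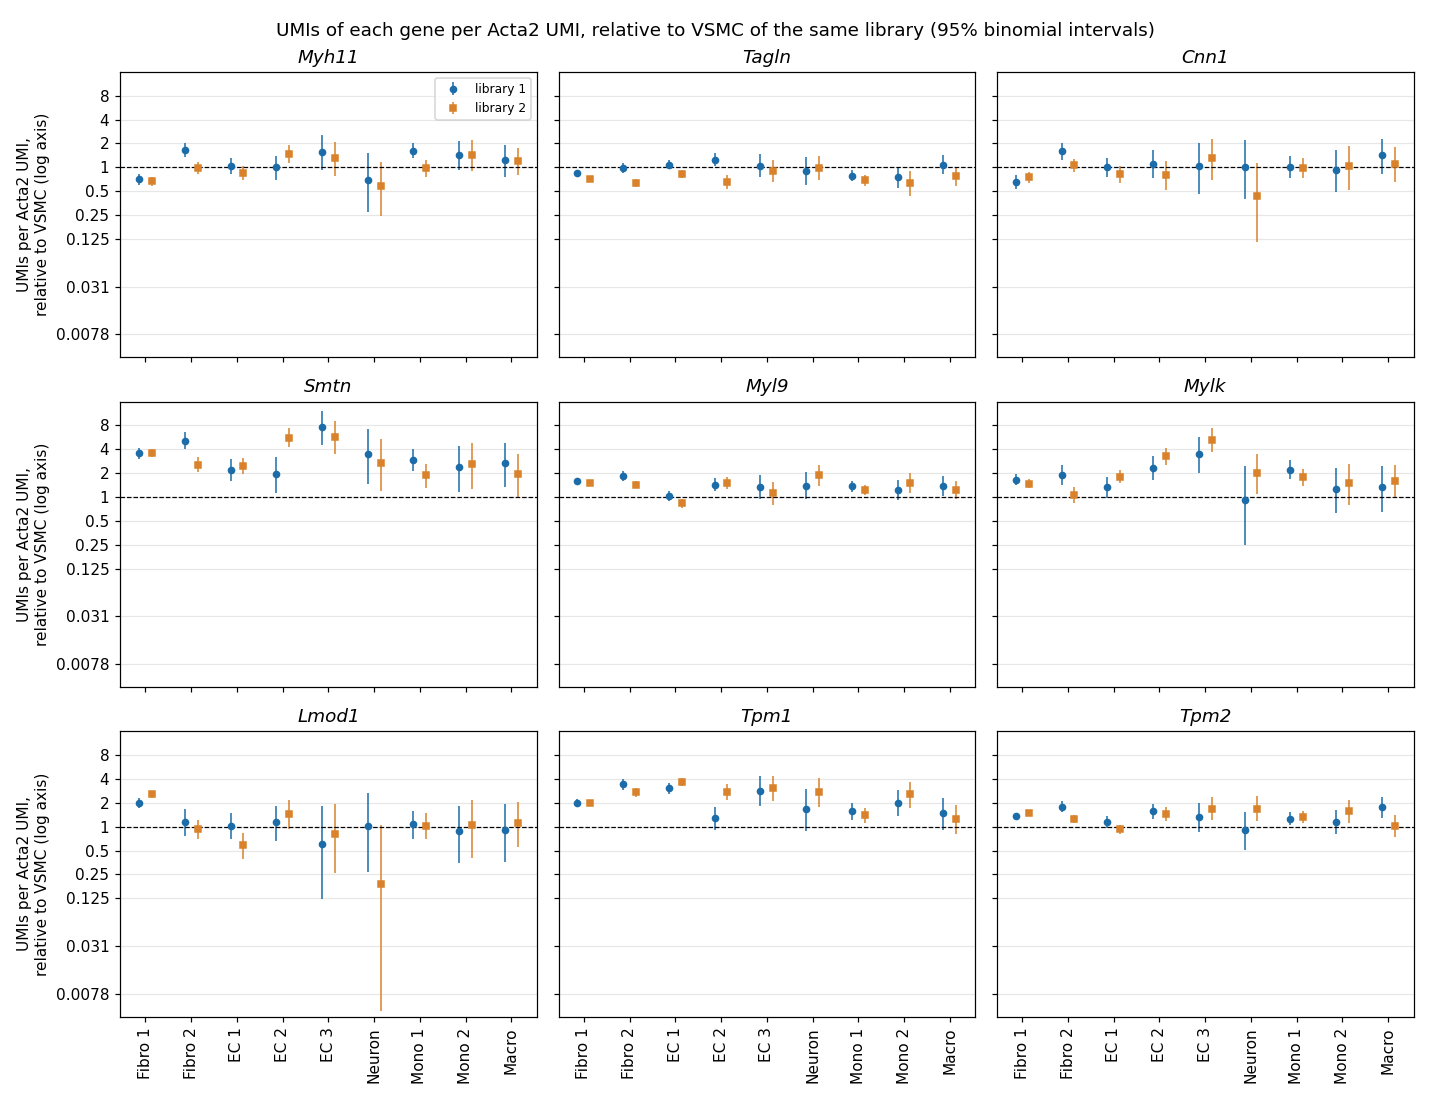
UMIs of each gene per Acta2 UMI in the 9 populations outside VSMC, divided by the same ratio in VSMC of that library (log axis, dashed line at 1), with exact 95% binomial intervals for library 1 (circles) and library 2 (squares). Smtn lies above the line in nearly all populations, between 1.87 and 7.59, whereas Cnn1 scatters around it with a median of 1.01.

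To ask whether non-muscle populations held the genes above the level of cells that should lack them, fibroblasts, endothelium and Neuron were each compared with the mean of the 3 immune populations, which the comparisons share. These populations too were formed by the authors from the same cells and genes, so the p-values of these comparisons describe that division. Depth differed as well, and apart from thinning cells its part in these levels was not tested. Median UMIs per cell in libraries 1 and 2 were 2358 and 2474.5 in Neuron and 2394 and 2790 in EC 2. EC 1 had 3286.5 and 4710, EC 3 2976 and 4670, Fibro 1 4579.5 and 6024 and Fibro 2 4515 and 5906. Of the immune populations, Macro had 2382 and 2958.5, Mono 1 3574 and 4421.5 and Mono 2 7286 and 6920. In fibroblasts (the mean of Fibro 1 and Fibro 2) 3 of the 10 genes were higher and 1 was lower, while 29.6% of all genes were called higher and 23.1% lower. The shares of the 10 genes, 3 and 1, were thus near and below the background. Lmod1 averaged 64.6 and 49.2 CPM in fibroblasts of libraries 1 and 2, against 30.6 and 25.9 CPM in immune cells. These means did not overlap between the groups, and the log2 fold change was 0.63 ± 0.23 (adjusted p = 0.022). Only Fibro 1 lay above the immune means, at 100.3 and 77.7 CPM, while Fibro 2 lay below them, at 28.8 and 20.7 CPM. Smtn averaged 89.4 and 51.7 CPM in fibroblasts, against 49.7 and 30.9 CPM in immune cells, again without overlap of the means (0.62 ± 0.21, adjusted p = 0.0145). In Fibro 2 alone Smtn had 74.9 and 35.9 CPM, which overlapped the immune means. Tpm1 averaged 197 and 137 CPM in fibroblasts, against 112 and 84.3 CPM in immune cells (0.61 ± 0.14, adjusted p = 0.000386). Myh11 was lower, at 98.3 and 54.8 CPM in fibroblasts against 115 and 73.6 CPM in immune cells. Its libraries overlapped between the groups, although it was lower within each library (-0.45 ± 0.17, adjusted p = 0.0281). The call of Myh11 was lost when doublets were left out (adjusted p = 0.165), and that of Lmod1 was lost with DESeq2 (adjusted p = 0.0759) and with cells thinned to 1300 UMIs (adjusted p = 0.439). In thinned cells Smtn was not called either (adjusted p = 0.078) and Tpm1 was. Of 19 other contractile apparatus genes 6 were higher and 2 lower in fibroblasts, and of 20 regulators 10 were higher and 4 lower.

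Between the fibroblast populations, Fibro 1 held 7 of the 10 genes at a higher level than Fibro 2, while 8.3% of all genes were called higher and 7.2% lower. The authors divided the cells with these genes among the data, so these p-values and those of EC 1 against EC 2 describe that division. Lmod1 stood out: it had 100.3 and 77.7 CPM in Fibro 1 of libraries 1 and 2, against 28.8 and 20.7 CPM in Fibro 2. Fibro 1 was far above Fibro 2 in each library, with a log2 fold change of 1.88 ± 0.21 (adjusted p = 1.77e-08). In cells thinned to 1000 UMIs, 6.92% and 5.94% of Fibro 1 cells had an Lmod1 UMI, against 1.93% and 0.703% of Fibro 2 cells. The background in Mono 1 was 3.87% and 2.67%, and its exact intervals overlapped those of Fibro 1 in both libraries. The fold of Lmod1 was 1.69 to 2.40 over the alternatives, and each that allowed a test called it.

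Mylk was higher in Fibro 1, at 90.4 and 62.0 CPM, than in Fibro 2, at 51.8 and 32.9 CPM (0.90 ± 0.24, adjusted p = 0.00643), and kept its call under every alternative. Smtn had 104 and 67.6 CPM in Fibro 1, against 74.9 and 35.9 CPM in Fibro 2 (0.74 ± 0.20, adjusted p = 0.00688). For both genes Fibro 1 was higher within each library, although for Smtn library 2 of Fibro 1 lay below library 1 of Fibro 2. Tagln (0.73 ± 0.26), Acta2 (0.72 ± 0.21), Myl9 (0.67 ± 0.20) and Tpm2 (0.66 ± 0.21) were higher by similar amounts. Tpm1 (0.14 ± 0.17), Cnn1 (-0.14 ± 0.24) and Myh11 (-0.14 ± 0.22) were not called. With DESeq2, or without the library block, the called genes came to 2, Lmod1 and Mylk. Of 19 other contractile apparatus genes 5 were higher in Fibro 1, among them the α-actinin gene Actn1 (1.76 ± 0.20), and 1 was lower. Of 17 genes on the list for the serum response factor and myocardin pathway 5 were higher and 1 lower, led by the Notch target Heyl (3.61 ± 0.29). Pericyte markers moved in the same direction: 6 of 11 were higher in Fibro 1 and 1 lower, and summed they reached 899 and 1027 CPM in Fibro 1, against 470 and 413 CPM in Fibro 2, with no marker at 0. Their part in the result was not tested.

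In endothelium (the mean of EC 1, EC 2 and EC 3) 4 of the 10 genes were higher than in immune cells and none lower, while 21.4% of all genes were called higher and 18.2% lower. Mylk, which non-muscle cells express as well, averaged 149 and 121 CPM in endothelium, against 56.4 and 54.8 CPM in immune cells (0.99 ± 0.20, adjusted p = 0.000117). Tpm1 averaged 271 and 203 CPM, against 112 and 84.3 CPM (0.93 ± 0.14, adjusted p = 2.55e-06), and was called under every alternative, as was Smtn, at 113 and 75.9 CPM against 49.7 and 30.9 CPM (0.94 ± 0.23, adjusted p = 0.00133). For these genes the endothelial means of both libraries stood above both immune means. Single populations overlapped for Mylk, at 75.8 and 88.2 CPM in EC 1 against 85.8 and 58.4 CPM in Mono 1. They overlapped for Smtn too, at 67.6 and 54.1 CPM in EC 1 against 61.5 and 28.0 CPM in Mono 1. The means of Tagln overlapped, at 742 and 239 CPM in endothelium against 296 and 187 CPM in immune cells (0.59 ± 0.18, adjusted p = 0.0082). Tagln lost its call without doublets (adjusted p = 0.0793). Mylk lost its call in thinned cells (adjusted p = 0.117). The other 6 genes were not called. Of 19 other contractile apparatus genes 10 were higher and 2 lower, with a median of 0.96, against 0.06 over all genes tested. Pericyte markers were higher in 4 of 11 and summed to 102 to 1379 CPM over the endothelial populations, against 81.6 to 138 CPM in the immune ones, and their part was not tested.

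Between the endothelial populations the genes divided. In EC 1, Tpm1 was higher than in EC 2, and Mylk, Myl9 and Tpm2 were lower, while 11.1% of all genes were called higher and 9.23% lower. Tpm1 had 338 and 290.1 CPM in EC 1, against 243 and 186 CPM in EC 2, with no overlap (0.71 ± 0.20, adjusted p = 0.0106). Mylk had 75.8 and 88.2 CPM in EC 1, against 225 and 136 CPM in EC 2, also without overlap (-0.84 ± 0.27, adjusted p = 0.0214). Myl9 (-0.79 ± 0.22, adjusted p = 0.00842) and Tpm2 (-0.67 ± 0.23, adjusted p = 0.0361) rested on library 1 of EC 2. There Myl9 reached 971 CPM, against 356 CPM in library 2 of EC 2, and 72.1% of the UMIs of the 10 genes came from 6 of 56 cells. Without doublets Myl9 in that library was 379 CPM, and neither gene was called (adjusted p = 0.0745 for Myl9 and 0.515 for Tpm2), while Mylk and Tpm1 kept theirs. Tpm1 was not called with DESeq2 (adjusted p = 0.129) or without the library block (adjusted p = 0.0621), and Mylk was called under every alternative. Acta2, Tagln and Cnn1 pointed in opposite directions in the libraries and were not called. Summed pericyte markers were 170 and 122 CPM in EC 1, with Notch3, Higd1b and Cox4i2 at 0, against 1379 and 937 CPM in EC 2. Of the 11 markers 7 were lower in EC 1. Adipocyte markers summed to 13.2 and 172 CPM in EC 1, with Lep at 0, against 403 and 1135 CPM in EC 2, where Lep was at 0 too, and 5 of the 6 tested were lower in EC 1. Of 17 immediate early genes 9 were lower in EC 1. The part of these genes in the result was not tested.

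Neuron, which carried Schwann cell markers at 8103 and 12198 summed CPM, had 5 of the 10 genes above the immune level, while 8.94% of all genes were called higher and 8.3% lower. Tpm1 had 323 and 352 CPM in Neuron, against 112 and 84.3 CPM in immune cells (1.27 ± 0.27, adjusted p = 0.000624). Myl9 had 970 and 854 CPM, against 321 and 245 CPM (1.16 ± 0.22, adjusted p = 0.000188). Both stood clear of the immune libraries, as did Tagln (1.14 ± 0.29), Tpm2 (0.86 ± 0.27) and Acta2 (0.83 ± 0.21). The population was small, and 2 of its 12 cells in library 1 held 74.1% of the UMIs of the 10 genes. In library 2, 4 of its 32 cells held 58.8% of the UMIs of these genes. When the 12 cells outside VSMC that reached its 5th percentile were left out, 1 Neuron cell of each library among them, Myl9 and Tpm1 were called, Tagln (0.19, adjusted p = 0.748) and Tpm2 (0.46, adjusted p = 0.31) were not, and Acta2 changed sign (-0.46, adjusted p = 0.15). Without the library block the same 3 genes were not called, at adjusted p = 0.111 for Tagln, 0.1003 for Tpm2 and 0.0951 for Acta2. Acta2 was also not called with doublets left out (0.49, adjusted p = 0.112) or with thinned cells (0.03). Of 19 other contractile apparatus genes 4 were higher and 1 lower, and of 20 regulators 4 were higher and 2 lower. The median over all genes tested was -0.21 here, and 0.03 with DESeq2, which called 1255 genes higher and 639 lower, against 938 and 871 with edgeR. Pericyte markers were called higher in 11 of 11 over both libraries together and summed to 993 and 3749 CPM in Neuron. In library 1, however, Notch3, Higd1b, Cox4i2, Vtn, Ndufa4l2 and Pdgfrb were at 0, and Rgs5 alone had 646 CPM. The part of pericyte markers in the result was not tested.

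**Figure D4:**
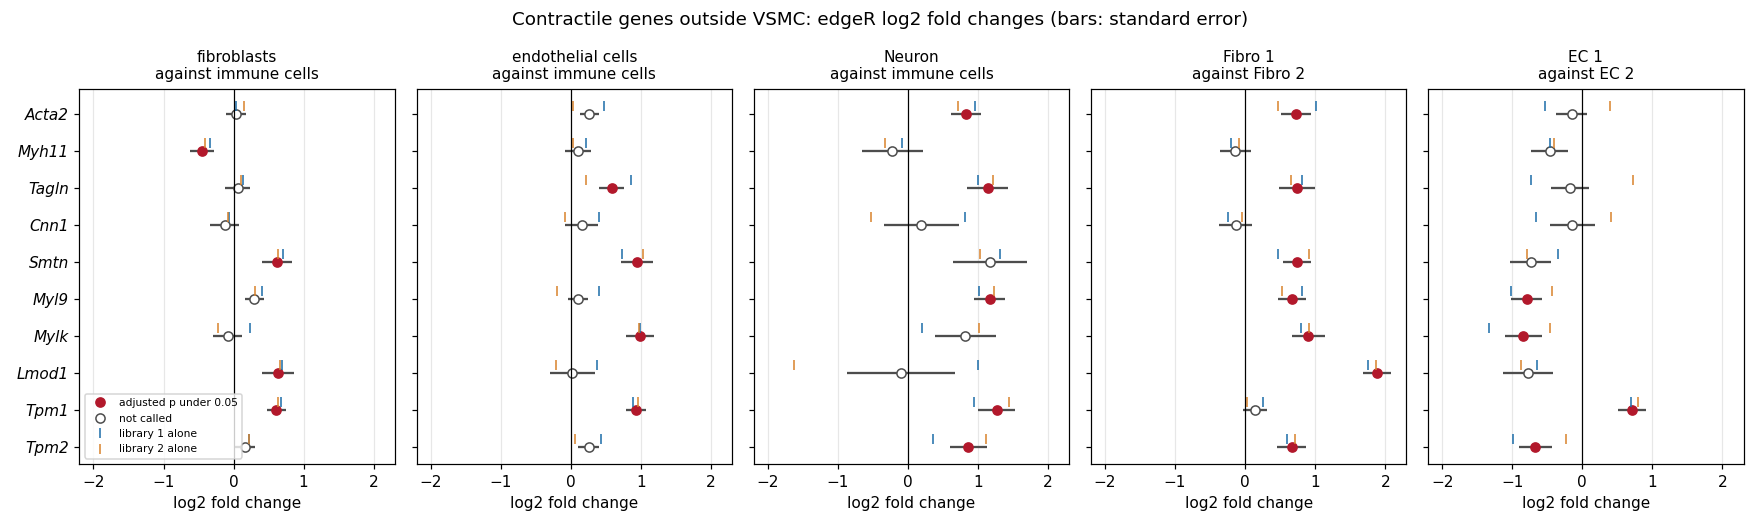
Log2 fold changes of the 10 genes (points with standard errors; filled where the adjusted p is under 0.05) in the 5 comparisons outside VSMC, with ticks for library 1 and library 2 alone. Lmod1 between Fibro 1 and Fibro 2, at 1.88, is the largest difference, and the ticks of EC 1 against EC 2 lie on opposite sides of 0 for Acta2, Tagln and Cnn1.

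Within VSMC the genes varied unequally from cell to cell. Cells were thinned to 2000 UMIs, which kept 955 cells of library 1 and 1041 of library 2 and left out 148 and 15 shallower ones. The summed UMIs of the 10 genes ranged from 16 to 203 in library 1, with a median of 92, and from 2 to 188 in library 2, with a median of 86. The Fano factor, the variance over the mean, is 1 for counting noise alone. It was highest for Acta2, at 7.43 and 6.13 in libraries 1 and 2, followed by Tagln at 4.03 and 3.87, Tpm2 at 3.39 and 3.09 and Myl9 at 2.93 and 2.97. Myh11 had 1.85 and 1.83, and Tpm1, Cnn1 and Mylk lay between 1.28 and 1.57. Lmod1, at 1.19 and 1.20, and Smtn, at 1.18 and 1.17, were close to counting noise at this depth. The factor grows with the level. Over the other genes with a mean of 10 to 50 UMIs, which were 14 in each library, its median was 5.99 and 5.51. Over those with a mean of 2 to 10 it was 1.52 and 1.44, and over those with a mean of 0.5 to 2 it was 1.14 and 1.13. In the highest of these bands Tagln and Myl9 were under the median and Acta2 above it. In the band of 2 to 10 UMIs Tpm2 and Myh11 were above the median, Tpm1 and Cnn1 near it and Mylk under it. In the band of 0.5 to 2 UMIs Lmod1 and Smtn were slightly above the median in both libraries. The cytoplasmic actin Actb varied more than any of the 10, at 16.7 and 12.7.

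No VSMC cell of the thinned set lacked Acta2. In library 1 the 10th percentile was 15 Acta2 UMIs, the median 34 and the highest 89. In library 2 the 10th percentile was 15, the median 31 and the highest 82. Smtn was at 0 in 34.8% and 32.1% of cells and reached at most 9 and 8 UMIs.

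Across cells the genes varied together to different degrees. Of 45 pairs of genes 37 had a Pearson correlation above 0 in both libraries, with a median of 0.14 and 0.13. The points of a library share its depth and handling, so these values are descriptive. Acta2, Tpm2, Tagln and Myl9 formed the tightest group, with correlations of 0.44 to 0.57 in library 1 and 0.42 to 0.53 in library 2, led by Acta2 with Tpm2. With the sum of the other 9 genes Acta2 correlated at 0.68 and 0.63, Tagln at 0.62 and 0.55, Tpm2 at 0.62 and 0.59 and Myl9 at 0.60 and 0.58. Tpm1 followed at 0.40 and 0.39 and Cnn1 at 0.37 and 0.31. The motor genes were looser, Myh11 at 0.17 and 0.27 and Mylk at 0.18 and 0.14, as was Lmod1 at 0.22 and 0.15.

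Smtn again stood apart. Its correlation with the sum of the other 9 genes was 0.0064 in library 1 and -9.1e-05 in library 2, or 0.08 as the mean of the libraries at 4000 UMIs per cell. Since Smtn averaged 1.12 and 1.17 UMIs per thinned cell, counting noise lowers its correlations. Weak positive values recurred in both libraries with Myh11, at 0.09 and 0.10, and with Mylk, at 0.08 and 0.07. Weak negative values recurred with Tagln (-0.03 and -0.04), Cnn1 (-0.02 and -0.03) and Tpm1 (-0.06 and -0.02). Lmod1, with more UMIs per thinned cell at 1.78 and 1.66, had 0.22 and 0.15 with the sum of its other 9 genes. The part of counting noise in the Smtn values was not tested.

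**Figure D5:**
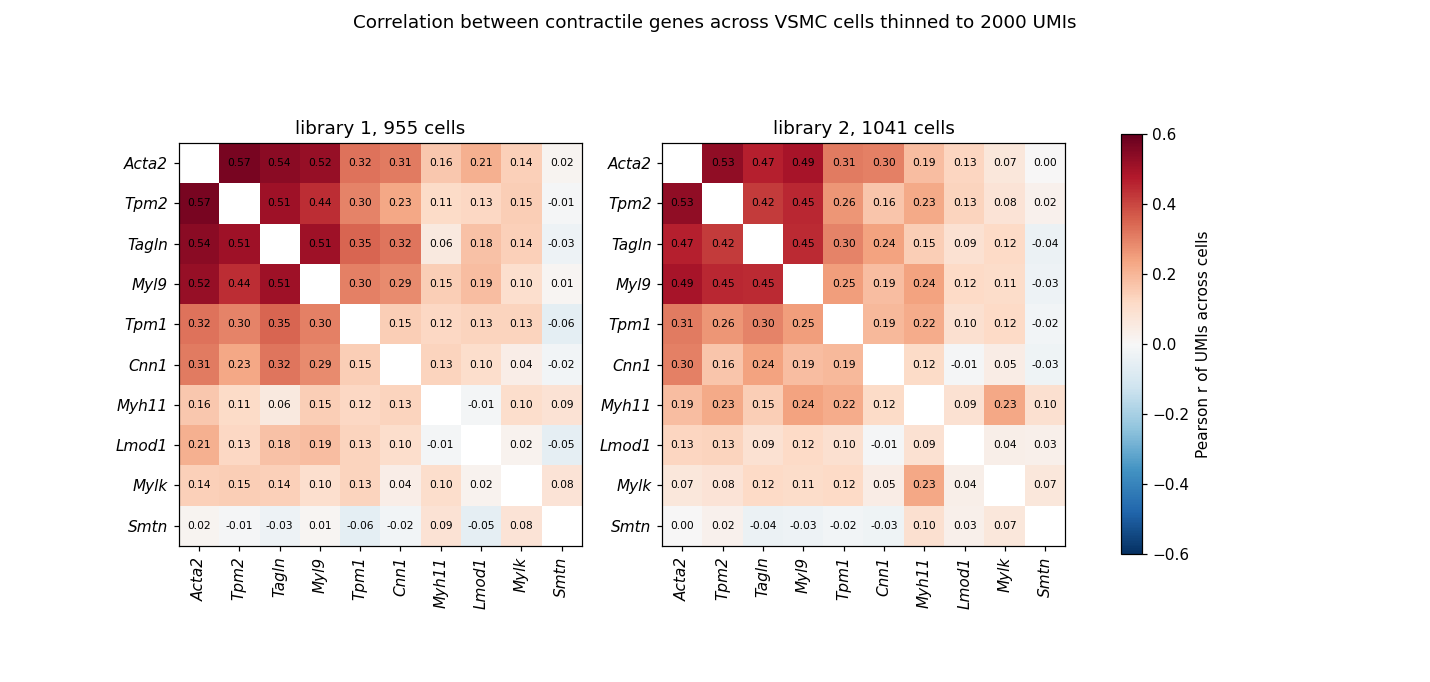
Pearson correlation of UMIs between pairs of the 10 contractile genes across VSMC cells thinned to 2000 UMIs, for library 1 (955 cells) and library 2 (1041 cells). Acta2, Tpm2, Tagln and Myl9 form the darkest block, at 0.42 to 0.57, and the row of Smtn is near 0 in both libraries.

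VSMC cells were placed in 5 equal bins by the summed UMIs of the 10 genes, which fixes the direction for the sum. Each gene weighs in the sum by its level, Acta2 most and Smtn least, so the bin means below describe the bins and do not rank the genes. Acta2 averaged 56.1 UMIs in the highest bin of library 1 and 15.7 in the lowest, and 49.9 and 15.97 in library 2. Tpm2 averaged 14.5 in the highest and 3.92 in the lowest bin of library 1, and 14.6 and 4.31 in library 2. Myh11 averaged 5.84 against 3.64 in library 1 and 5.88 against 3.11 in library 2, and Smtn 1.20 against 1.01 and 1.18 against 1.07.

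Measures outside the 10 genes went along with the sum in VSMC. Other contractile apparatus genes correlated with it at Spearman's rho 0.59 and 0.56 in libraries 1 and 2, and regulators of contraction at 0.28 and 0.27. Genes of modulated smooth muscle, which include matrix genes such as Mgp, correlated at -0.21 and -0.19, and fibroblast markers at -0.24 and -0.19. Among markers of other cell types, endothelial markers had -0.13 and -0.10, immune markers -0.07 and -0.05 and adipocyte markers -0.07 and -0.01. Schwann and neural markers had -0.13 and -0.18, but summed to 621 and 534 CPM in VSMC, above every population except Neuron. Others had positive values, pericyte markers at 0.05 and 0.07 and skeletal and cardiac muscle markers, a list that includes Des, at 0.16 and 0.12. Cells high in the sum also had more UMIs before thinning (rho 0.41 and 0.23) and a smaller mitochondrial share (-0.18 and -0.11). Haemoglobin UMIs correlated at -0.11 and -0.04, although their means differed more, at 5.94 per cell in the highest bin against 27.1 in the lowest in library 1 and 3.22 against 15.9 in library 2. The part of depth, cell quality and free haemoglobin RNA in these correlations was not tested.

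Of 1829 other genes compared in this way, Myl6, the essential myosin light chain, was most alike (rho 0.54 and 0.51), against a median of 0.03 and 0.01 over all. The actin-severing gene Dstn (0.40 and 0.34), the myosin phosphatase inhibitor Ppp1r14a (0.37 and 0.33) and the LIM gene Csrp1 (0.37 and 0.31) came next, followed by Ppia, Crip1, Vim, Cox7c, Palld and Actn1, each at 0.18 or more in both libraries. At the other end stood the nuclear RNA Malat1 (-0.28 and -0.22), the collagen gene Col1a2 (-0.24 and -0.22) and Zbtb20 (-0.22 and -0.20), then Neat1, Mt1, Col15a1, Mt2, Smoc1, Apoe and Lamb2.

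Across the 10 populations a different set of genes was most like the mean of the 10. Of 6866 genes compared, Itga8 had a Pearson correlation of 0.96 and 0.97 in libraries 1 and 2, over 10 populations that share a library and are dominated by the gap between VSMC and the rest. It was followed by E030013I19Rik, the small heat shock gene Hspb6, Fbxl22, the kinase gene Rock1, the actin-binding gene Synpo2, Sh3bgr, Filip1l, Ldb3 and the junctophilin gene Jph2, each at 0.90 or more in both libraries. Itga8 stood at 1043 and 1108 CPM in VSMC, a level close to that of Mylk.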

How the data were processed

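The authors deposited a table of raw UMI counts per gene and cell with a table that names each cell's population, and the library was read from the number that ends each cell barcode. These numbers could not be tied to the sample names, so libraries are called 1 and 2. Cell Ranger 2.1 is named in the submitters' processing notes, and the genome build and the filters on cells are not given in the sources used here. All 5451 deposited cells were used.

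UMIs were summed per population and library. The 20 sums were fitted with edgeR 4.0.16 (limma 3.58.1, R 4.3.3; TMM, filterByExpr, quasi-likelihood test, prior count 2), with the library as a block because the populations of a library come from the same aorta. The script was tested on simulated data. The SE is the absolute log2 fold change divided by the square root of F. The p-values rest on the spread of the 20 sums around the effects of population and library, pooled over populations, with 9 residual degrees of freedom. All populations come from the same 2 aortas, so the p-values do not measure the spread between mice. They were adjusted over 10488 genes. Alternatives were DESeq2 1.42.0, RLE size factors, no filter, no block, cells thinned to 1300 UMIs, sums of at least 25 cells, and doublets left out. Doublets were scored per library with Scrublet in scanpy 1.11.5, and the threshold of 0.2 was chosen after the scores were seen. It marked 58 cells in library 1 and 44 in library 2. Leaving out cells outside VSMC that were rich in contractile UMIs was added after the data were seen. Poisson and Clopper-Pearson intervals cover counting error only. Levels, correlations and figures used scipy 1.17.1, pandas 2.3.3, numpy 2.4.6 and matplotlib 3.10.9 in python 3.11.15.

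The 10 genes and the other lists were chosen with earlier results of these data known. From each list up to 4 genes were named, namely those of largest fold that were called, moved alike in both libraries and had 50 UMIs or more. The paralogs were named where their level is set beside a member. Genes most alike were the 10 with the highest value of the lower of the 2 libraries' correlations, or the 10 lowest, among genes with at least 500 UMIs. Across populations log2(CPM + 5) was used.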

Additional observations from a re-analysis of the deposited data

How the results depend on the processing

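The 10 contractile genes were called higher in VSMC under every alternative tested. Thinning cells to 1300 UMIs lowered the genes called most, to 2613 for VSMC against the other populations (4636 in the analysis reported), 2991 for fibroblasts (5527), 2151 for endothelium (4150), 1072 for Neuron (1809), 724 for Fibro 1 against Fibro 2 (1626) and 1278 for EC 1 against EC 2 (2130). For Fibro 1 against Fibro 2 the count was 939 without the replicate block and 1078 with DESeq2. Of the 10 genes, those called in fibroblasts were 2 without the replicate block and 1 in thinned cells, against 4 as reported. In Neuron they were 2 without the replicate block, 3 in thinned cells and 2 without the cells rich in contractile UMIs, against 5. Between Fibro 1 and Fibro 2 they were 2 without the replicate block and 2 with DESeq2, against 7, and between EC 1 and EC 2 they were 1 without the replicate block and 2 in thinned cells, against 4. The block marks cells from the same aorta. Each library alone leaves no residual degrees of freedom and was given as values only.

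The mean of single cells gave 43988 CPM for the 10 genes in VSMC, against 46905 CPM from sums (45523 to 48286 in single libraries). Without thinning the median share of other cells with an Acta2 UMI was 82.1%, against 45.3% (35.9 to 54.7). The median Fano factor was 1.36 at 1000 UMIs and 2.14 at 4000, against 1.69 (1.68 to 1.70). The median correlation was 0.11 at 1000 UMIs, 0.20 at 4000 and 0.15 without doublets, against 0.14 (0.13 to 0.14).

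Changes of sign concerned genes that were not called, with the exception of Acta2 in Neuron, at -0.46 without the cells rich in contractile UMIs. Values are log2 fold changes. In fibroblasts Acta2 was -0.031 with RLE, -0.061 in thinned cells and -0.036 with DESeq2, Tagln -0.0051 with RLE and -0.011 with DESeq2, and Mylk 0.080 without doublets and 0.031 without the rich cells. In endothelium Cnn1 was -0.15 without doublets, -0.29 in thinned cells and -0.12 without the rich cells, Myl9 -0.089 and -0.037 without doublets and without the rich cells, and Tpm2 -0.021 without doublets. Lmod1 there was -0.030 with RLE, -0.041 without doublets and -1.85 in thinned cells. In Neuron Myh11 was 0.084 in thinned cells, Cnn1 -0.55 with at least 25 cells and -1.11 without the rich cells, and Lmod1 0.040 with RLE, 0.29 without doublets and 0.078 with DESeq2. Between EC 1 and EC 2, Acta2 was 0.28 without doublets, 0.22 in thinned cells and 0.24 without the rich cells, Tagln 0.44, 0.48 and 0.45 under the same settings, Myh11 0.27 in thinned cells, and Cnn1 0.030 without doublets and 0.15 without the rich cells. The cause of these changes was not tested. Precision is limited by 2 libraries, by small populations and, within VSMC, by about 1 Smtn UMI per thinned cell.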
